A study of Mus musculus with 11 samples.

Results

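The comparison set CD51+ bone marrow cells, named CD51+ BMSCs in the study, against Osx+ osteoprogenitors. Both mouse cell populations were sorted alongside the skeletal stem cells of the study. The names CD51+ BMSCs and Osx+ osteoprogenitors are kept here for the sorts and do not state a cell type. The members of the comparison were the 4 arrays whose titles name these populations. They were 2 of CD51+ BMSCs and 2 of Osx+ osteoprogenitors, out of 11 arrays in all. The CD51+ BMSCs were bone marrow cells without CD45, CD31 and Ter119, the surface markers of white blood cells, endothelium and red cells, that carried CD51 (the integrin alpha V chain, gene Itgav). The study's text adds CD105 (Eng) and CD140a (Pdgfra) to their selection, and the labels do not. The Osx+ osteoprogenitors were also without CD45, CD31 and Ter119 and were GFP positive through an Osterix (Sp7) reporter, and the labels give periosteal tissue as their source. Population and tissue of origin therefore cannot be told apart. The study describes pools of cells from mice of both sexes that were not cultured, and the strain, age and any treatment of the mice behind these 4 arrays are not given in the sources used here. The Mx1 reporter mice of the other arrays had been irradiated, transplanted with marrow and injected with polyinosinic:polycytidylic acid, and no source says whether the mice of these 4 arrays were. Whether the paired arrays of a population came from different mice is stated only as biological repeats, so the p-values below measure the spread between these samples, which may be partly technical.

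As background, bone grows and is repaired by cells of one lineage family. Chondrocytes of the growth plate lay down cartilage of type II, IX, X and XI collagen and aggrecan under the control of SOX9, Indian hedgehog and parathyroid hormone-related protein, and Osterix is needed for the step from progenitor to bone-forming osteoblast. Osterix is also made by prehypertrophic and hypertrophic chondrocytes. The stroma of the marrow wraps vessels and feeds blood stem cells through the chemokine CXCL12 and stem cell factor (Kitl), and it carries the leptin receptor and PDGF receptor alpha.

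Values are log2 RMA values (background-corrected, quantile-normalised probe set summaries), so that a difference of 1 is a 2-fold difference, and all differences are CD51+ minus Osx+. A gene was read from its brightest probe set, and levels of different genes are not compared. Other probe sets of a gene did not always pass. For Dcn, Cdon, Tnfsf11 and Phex, for example, 1 of 2 probe sets passed. Some genes are members of more than 1 list. Of 45037 probe sets, 4807 were higher (10.7%) and 3676 lower (8.16%) in CD51+ BMSCs at an adjusted p under 0.05 in a limma fit of the 4 arrays. A fit of all 11 arrays passed 682 higher (1.51%) and 320 lower (0.711%), and all of these 1002 also passed in the 4-array fit. The 11-array fit has the same differences but takes its spread from the other populations as well. Without array 2 of the periosteal and of the marrow Mx1+ cells, a fit of 9 arrays passed 11108. For Ibsp the SE was 0.14 with 4 arrays and 2.2 with 11. A call in the 4-array fit only thus need not mean a wider spread between these 4 arrays. By gene, 2588 of 18193 were higher (14.2%) and 1752 lower (9.63%) in the 4-array fit, and 402 were higher (2.21%) and 179 lower (0.984%) in both fits. These percentages are the background for every count below. A fit without 1 of the CD51+ arrays takes its spread from the Osx+ pair alone. Without CD51+ array 1 or array 2 the median difference was -3.155 or -3.17 for cartilage matrix genes. It was -2.1 or -2.262 for bone matrix genes and 1.78 or 1.725 for marrow niche genes. The number of probe sets that passed depended strongly on the array left out. Without Osx+ array 1 the total was 3056, and without Osx+ array 2 it was 4497. The median difference over all genes was -0.04. Across probe sets the arrays of a pair correlated at 0.993 in CD51+ BMSCs and 0.985 in Osx+ osteoprogenitors (Pearson, probe sets are not independent replicates). The Osx+ arrays were not alike in blood genes. The median of 31 neutrophil genes was 4.34 in Osx+ array 1 and 5.50 in array 2. The Y-linked Eif2s3y read 2.73 and 2.47 in the CD51+ arrays and 6.43 and 8.53 in the Osx+ arrays, and the X-linked Xist read 11.54 and 11.35 in the CD51+ arrays and 11.52 and 9.90 in the Osx+ arrays. The CD51+ values of Eif2s3y were thus low in both arrays, as were the CD45+ values of 2.90 and 2.77. Of its 2 probe sets 1 passed as lower. Whether each pool held both sexes and the part of sex in the differences were not tested.

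**Figure D1:**
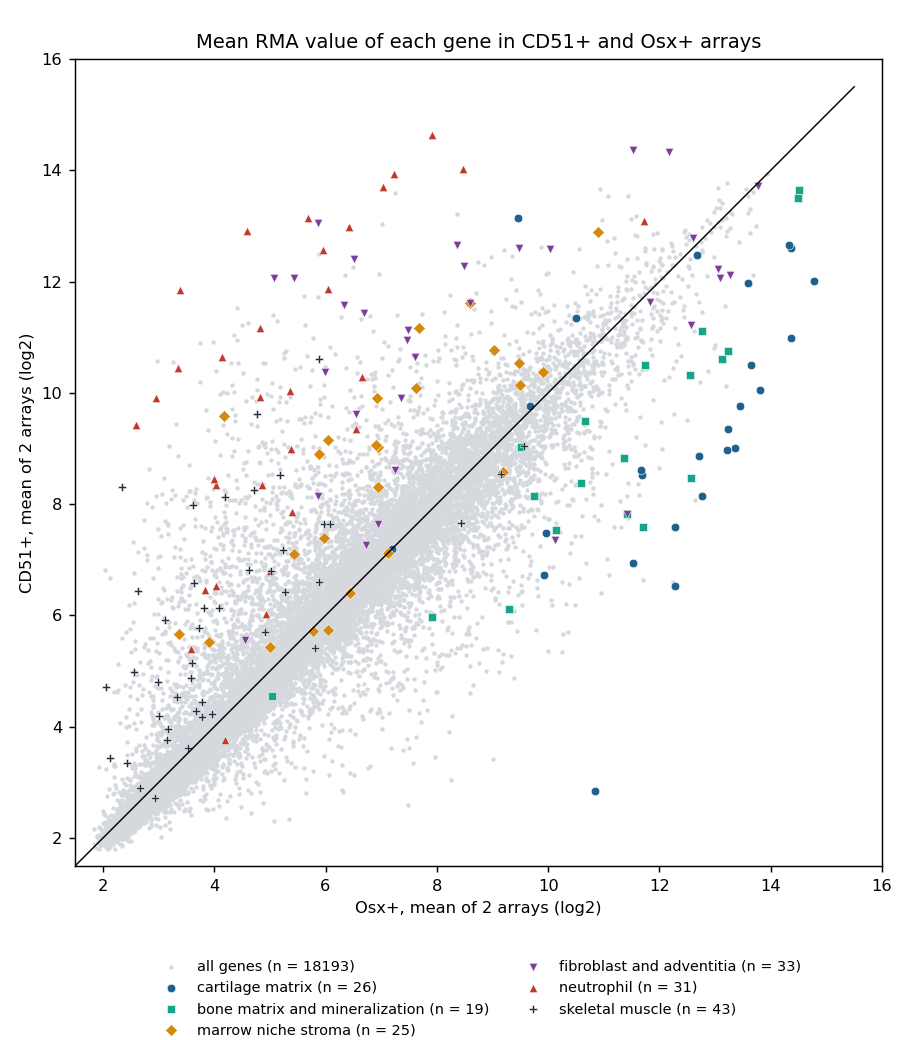
Each grey point is 1 of 18193 genes, with the mean log2 RMA value of the 2 Osx+ arrays on the x axis and of the 2 CD51+ arrays on the y axis, and 6 gene lists are coloured. Most cartilage matrix and bone matrix genes lie below the line of equal values, and most neutrophil, fibroblast, marrow niche and skeletal muscle genes lie above it.

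The genes behind the sort gave a mixed answer to the labels. Sp7, the defining gene of the Osx+ cells, read 5.05 and 5.26 in the CD51+ arrays and 8.93 and 8.58 in the Osx+ arrays. It was 12.1-fold lower in CD51+ BMSCs in both fits (difference -3.60 ± 0.18 SE, adjusted p = 0.00033 and 0.0062). Itgav, the defining gene of the CD51+ cells, was not higher in them. It read 10.10 and 10.27 in the CD51+ arrays and 10.73 and 10.79 in the Osx+ arrays, a difference of -0.57 ± 0.14 (SE) that passed in the 4-array fit (adjusted p = 0.047) and not with the array number as a block or in the 11-array fit (adjusted p = 1). Of its 5 probe sets 1 passed as lower and 0 as higher. The transcript of the sorted surface protein therefore did not separate the populations in the direction of the label. Of 4 beta chains looked at among those known to pair with alpha V, 2 passed. Itgb3, which pairs with alpha V in the vitronectin receptor, read 7.69 and 7.69 against 5.42 and 5.50, and the CD45+ arrays read 7.87 and 7.67. Of its 2 probe sets 1 passed as higher. Itgb8, another partner, read 5.32 and 5.30 against 3.54 and 3.43, and the CD45+ arrays read 2.54 and 2.11. Both genes were higher in CD51+ BMSCs in the 4-array fit, by differences of 2.23 ± 0.13 and 1.83 ± 0.14 (SE). Neither passed in the 11-array fit (adjusted p = 0.42 and 0.17). Itgb1 and Itgb5 had differences of -0.51 ± 0.17 and -0.30 ± 0.23 (SE) and did not pass.

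Pdgfra, the gene of CD140a, read 11.44 and 11.79 in the CD51+ arrays and 8.53 and 8.65 in the Osx+ arrays and was 8.16-fold higher in the 4-array fit. Eng, the gene of CD105, read 7.09 and 7.39 and 6.97 and 7.08 and did not pass. Pecam1, the gene of the depleted CD31, stayed between 3.23 and 3.98 in all 4 arrays and did not pass. Ptprc, the gene of the depleted CD45, did not behave like Pecam1. It read 10.23 and 10.17 in the CD51+ arrays and 2.42 and 5.07 in the Osx+ arrays, and the difference of 6.46 ± 0.81 (SE) passed in both fits (adjusted p = 0.005 and 0.019). In the CD45+ hematopoietic arrays of the series it read 12.06 and 12.05. The CD51+ arrays therefore held the transcript of a marker that their sort was labelled to lack. The names "CD51+" and "CD51+ BMSCs" are used here for the sort only, and the blood genes are described in full below. Nes and Mx1, the reporter genes of the other populations, did not pass.

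**Figure D2:**
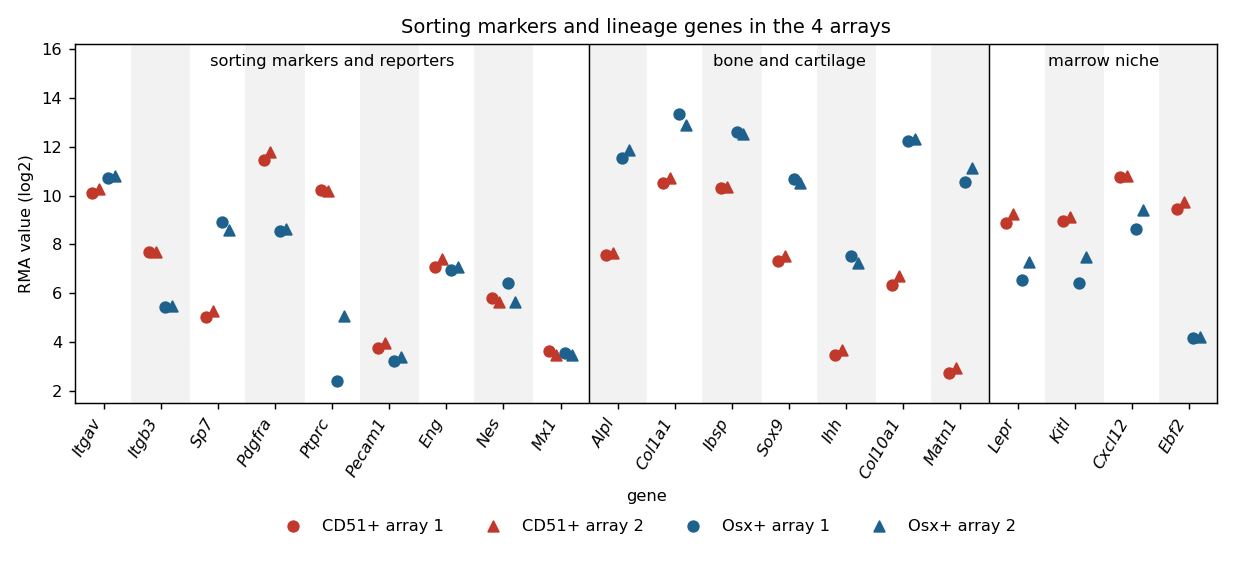
Log2 RMA value (y axis) of 20 genes (x axis) in the 2 CD51+ arrays (red) and the 2 Osx+ arrays (blue), with circles for array 1 and triangles for array 2. Sp7 and the bone and cartilage genes read lower, and Pdgfra, Ptprc and the marrow niche genes higher, in both CD51+ arrays, while Itgav, Eng, Nes and Mx1 lay close together.

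Cartilage genes were lower in CD51+ BMSCs, and their matrix list had the lowest median difference of all 43 gene lists. Of 26 measured cartilage matrix genes 21 were lower in CD51+ BMSCs, 11 of them in both fits, 1 was higher, and the median difference was -3.18. Matn1, which encodes the cartilage protein matrilin-1, read 2.74 and 2.94 in the CD51+ arrays and 10.54 and 11.14 in the Osx+ arrays. Its difference of -8.00 ± 0.23 (SE, adjusted p = 0.00024 and 0.0019 in the 2 fits) was the largest fall of any gene that passed in both fits. Col10a1, the collagen of hypertrophic chondrocytes, read 6.35 and 6.70 against 12.24 and 12.31 and was 53.8-fold lower. Epyc, the small proteoglycan epiphycan of the growth plate, read 7.57 and 7.60 against 12.16 and 12.41. These 3 genes were picked by a rule that required no overlap between the arrays of the groups, so their separation is not a separate result.

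The chains of type IX collagen, a collagen that coats type II fibrils, fell together. Col9a1 read 10.61 and 11.35 in the CD51+ arrays and 14.30 and 14.43 in the Osx+ arrays, Col9a2 6.79 and 7.10 and 11.37 and 11.70, and Col9a3 8.73 and 9.30 and 13.16 and 13.55, all lower in both fits. Acan, the aggrecan core protein that holds water in cartilage, read 9.38 and 9.33 against 13.24 and 13.21 and was 14.6-fold lower in both fits. Matn3, Snorc, Mia and Cnmd also fell in both fits, with differences of -3.84, -3.69, -3.16 and -3.14. Col2a1, the type II collagen that defines cartilage, read 11.69 and 12.32 against 14.81 and 14.75 and passed only in the 4-array fit (difference -2.78 ± 0.23 SE, adjusted p = 0.0013 and 0.18). Its values remained high in the CD51+ arrays, where the CD45+ arrays read 3.66 and 3.31.

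One member of the list ran the other way. Prg4, which encodes lubricin, the lubricant of joint surfaces and synovium, read 13.11 and 13.17 in the CD51+ arrays and 9.73 and 9.18 in the Osx+ arrays, a difference of 3.68 ± 0.22 (SE) in the 4-array fit (adjusted p = 1 in the 11-array fit). Cytl1 read 11.47 and 11.23 against 10.21 and 10.78, and with Vit, Cilp2 and Pcolce2 it did not pass.

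The regulators of the growth plate followed the matrix. Of 22 measured, 18 were lower in CD51+ BMSCs, 7 of them in both fits, none was higher (0 at an unadjusted p under 0.05), and the median difference was -2.83. Ihh, the Indian hedgehog ligand of prehypertrophic chondrocytes, read 3.49 and 3.67 in the CD51+ arrays and 7.54 and 7.26 in the Osx+ arrays (difference -3.82 ± 0.17 SE, adjusted p = 0.00027 and 0.029). Fgfr3, the receptor that restrains growth plate proliferation, read 6.87 and 6.58 against 11.19 and 11.01 and was 20.7-fold lower. Panx3, a channel protein of hypertrophic chondrocytes and osteoblasts, read 6.61 and 6.60 against 12.27 and 12.21 and was 49.7-fold lower. Foxa3, Trpv4, Susd5 and Gdf5 also fell in both fits. Among transcription factors, Sox9 read 7.32 and 7.54 against 10.66 and 10.50, and its partners Sox5 and Sox6 had differences of -2.20 and -2.51. All 3 SOX genes passed in the 4-array fit only, as did Pth1r, the receptor for parathyroid hormone and its related protein (8.36 and 8.57 against 12.62 and 12.50), and Mef2c. Runx3, Barx1, Nkx3-2 and Zbtb20 did not pass.

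In the promoters of the cartilage matrix genes (windows from before to just after each gene start, RefSeq, GRCm38.p6), ACAATG, the core letters of a SOX site, was searched on both strands. Of 22 promoters of 19 matched genes 2 held it (9.09%), against 12.6% of all 32851 promoters, so that the share was near that of all promoters, and both belonged to Epyc. The second is printed for its closely spaced pair, with the matches in capitals, from chr10:97646853-97647152 on the + strand.
Epyc promoter: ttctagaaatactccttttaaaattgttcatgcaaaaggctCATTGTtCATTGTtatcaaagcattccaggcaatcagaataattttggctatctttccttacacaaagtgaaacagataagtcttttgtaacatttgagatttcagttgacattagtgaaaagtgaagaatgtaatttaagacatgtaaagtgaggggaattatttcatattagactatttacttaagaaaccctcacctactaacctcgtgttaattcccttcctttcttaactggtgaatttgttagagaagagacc
No match says only that these letters are not in the window.

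**Figure D3:**
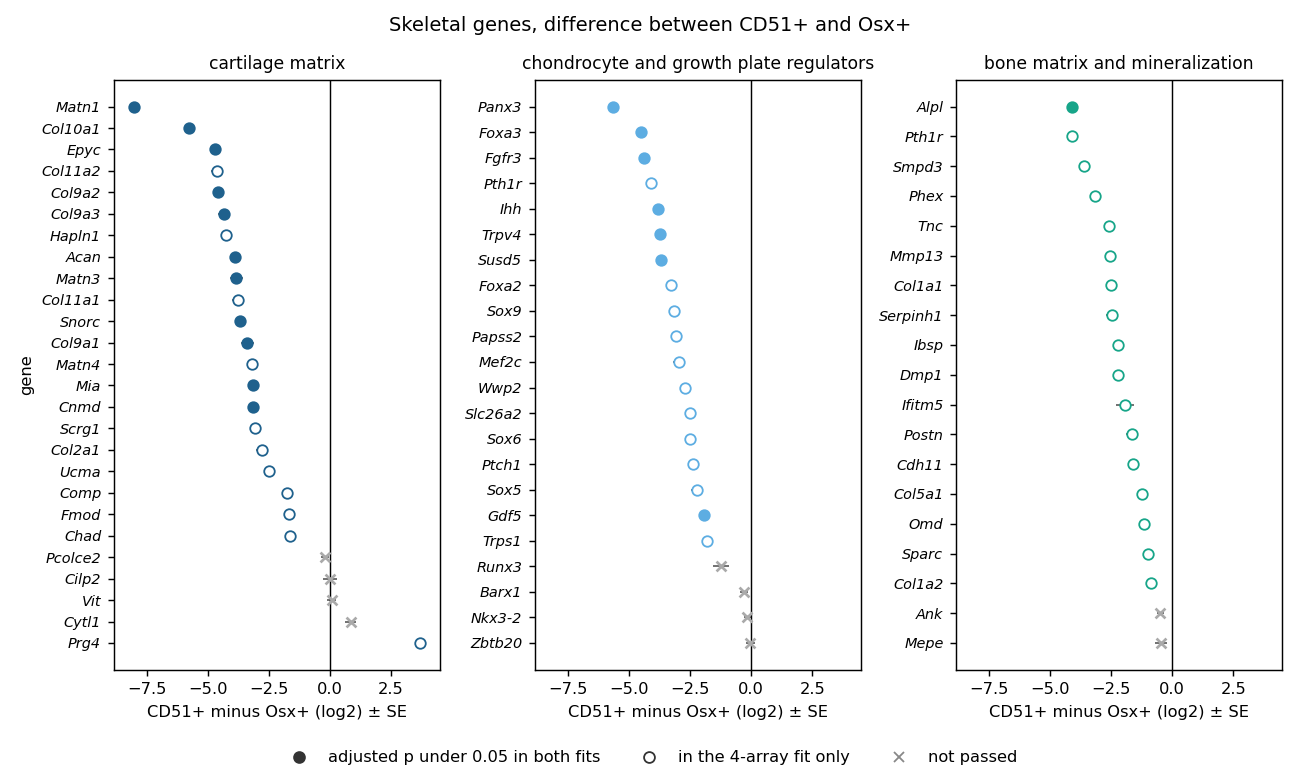
Difference CD51+ minus Osx+ (log2, x axis, with bars of 1 SE from the 4-array fit) of each measured gene (y axis) in 3 lists, with filled points for genes that passed in both fits, open points for the 4-array fit only and crosses for genes that did not pass. Nearly all genes lie left of 0, Prg4 is the gene right of it that passed, and the cartilage lists hold 11 and 7 filled points while the bone list holds 1. Both fits have the same difference for a gene and differ in its SE, which in the 11-array fit also comes from the other populations.

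Bone genes were lower too. Of 19 measured genes of bone matrix and mineralization 17 were lower in CD51+ BMSCs in the 4-array fit and none was higher (0 at an unadjusted p under 0.05), with a median difference of -2.21, and 1 passed in both fits. The number lower was 9 or 10 without Osx+ array 1 or array 2. That gene was Alpl, the alkaline phosphatase that frees phosphate for mineral, at 7.56 and 7.64 in the CD51+ arrays and 11.53 and 11.88 in the Osx+ arrays (17.2-fold lower, adjusted p = 0.00024 and 0.0055). Col1a1, the main collagen of bone, read 10.53 and 10.70 against 13.33 and 12.90, whereas Col1a2 read 13.52 and 13.78 against 14.49 and 14.54. Their differences were -2.50 ± 0.19 and -0.87 ± 0.16 (SE). Ibsp (bone sialoprotein) read 10.29 and 10.36 against 12.59 and 12.52, Dmp1 8.28 and 8.49 against 10.75 and 10.42, and Smpd3, a sphingomyelinase needed for mineralization, 7.52 and 8.13 against 11.54 and 11.30. Mepe and Ank did not pass. TGTGGT, the core letters of a RUNX site, stood on either strand in 4 of 22 promoters of 16 matched bone genes (18.2%), near the 16.8% of all promoters.

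Among 10 osteoblast factors only Sp7 fell in both fits. Dlx5 and Dlx6, homeobox genes of osteoblast differentiation, were lower in the 4-array fit with differences of -1.97 and -1.33. Twist2, a repressor of osteoblast maturation, was the single factor that was higher, at 6.60 and 6.69 against 4.61 and 4.45 in both fits (difference 2.12 ± 0.14 SE). Runx2, Spp1 and the osteocalcin genes had no probe set with 1 gene symbol and were not analysed here. Of 12 osteocyte genes 6 were lower and 2 higher. Irx5 and the phosphate-regulating peptidase Phex had differences of -3.89 and -3.18 and were lower, while Pdpn (podoplanin), which also marks fibroblastic stroma, read 10.54 and 10.70 against 7.96 and 8.11.

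The machinery that makes and exports collagen was lower as a group. Of 31 genes of the secretory pathway and collagen processing, 22 were lower in CD51+ BMSCs, 2 of them in both fits, and 2 were higher, with a median difference of -1.08. The number lower was 8 or 10 without Osx+ array 1 or array 2. Loxl4, a lysyl oxidase that cross-links collagen, read 5.45 and 5.95 against 10.20 and 10.52 and was 25.3-fold lower in both fits. P3h2, a prolyl hydroxylase, read 6.12 and 6.30 against 10.17 and 10.46 and was 17.2-fold lower in both fits. Serpinh1, the collagen chaperone, read 10.42 and 11.10 against 13.19 and 13.27 and passed in the 4-array fit. The exceptions were Loxl1, an oxidase of elastic fibres, at 10.03 and 10.19 against 7.66 and 7.81, and Pcolce.

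Of 29 genes of glycolysis and the hypoxia response 17 were lower and 4 higher, with a median difference of -0.95, and 3 of the 17 fell in both fits. The 17 became 5 or 8 without Osx+ array 1 or array 2. Car12, a carbonic anhydrase, read 5.67 and 5.67 against 10.06 and 10.48 and was 24.3-fold lower, and Pdk1, a kinase that diverts pyruvate from mitochondria, read 6.21 and 5.87 against 7.83 and 7.97, both in both fits. The glucose transporters parted: Slc2a1 read 9.63 and 9.95 against 11.28 and 11.14, and Slc2a3, the transporter of neurons and leukocytes, 10.005 and 10.25 against 6.82 and 6.91. Of 24 genes of mitochondrial respiration 3 were higher (12.5%, near the 14.2% of all genes) and none lower (0 at an unadjusted p under 0.05).

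On the CD51+ side, genes of the marrow niche were higher. Of 25 measured 17 were higher in CD51+ BMSCs and none was lower (1 at an unadjusted p under 0.05), with a median difference of 1.67, and 2 passed in both fits. The number higher was 11 or 12 without Osx+ array 1 or array 2. Ebf2, a transcription factor of marrow stroma, read 9.43 and 9.74 in the CD51+ arrays and 4.16 and 4.21 in the Osx+ arrays (difference 5.40 ± 0.16 SE, adjusted p = 0.00024 and 0.0097). Bst1, a surface enzyme of marrow stroma and myeloid cells, read 5.63 and 5.72 against 3.25 and 3.47. The CD45+ arrays read above both for this gene, at 7.18 and 7.43. The remaining calls came from the 4-array fit. Lepr (leptin receptor) read 8.87 and 9.26 against 6.55 and 7.28, and Kitl 8.94 and 9.11 against 6.43 and 7.47. Cxcl12 read 10.75 and 10.80 against 8.63 and 9.42. For each of these genes Osx+ array 2 was the higher of its pair. Of their probe sets 3 of 4 passed as higher for Lepr, 4 of 4 for Kitl and 1 of 3 for Cxcl12. Ebf1, the paralogue of Ebf2 that B cells also use, had a difference of 2.98 ± 0.33 (SE). Adipoq, Grem1, Foxc1 and Pdgfrb did not pass. In 15 of the 17 genes that were higher, both CD45+ arrays read below both CD51+ arrays.

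Genes of fibroblasts and the adventitia of vessels were higher in CD51+ BMSCs as well, with a few exceptions. Of 33 measured 22 were higher in CD51+ BMSCs, 3 of them in both fits, and 6 were lower, with a median difference of 2.56. Pi16, which marks adventitial fibroblasts, read 13.06 and 13.03 in the CD51+ arrays and 5.07 and 6.67 in the Osx+ arrays (145-fold higher, adjusted p = 0.00075 and 0.012). Mfap5, a microfibril protein, read 11.99 and 12.12 against 3.86 and 6.30 and was 126-fold higher in both fits. Cd34, Clec3b, Efemp1 and Dcn were higher in the 4-array fit, with differences of 6.63, 5.89, 5.25 and 2.16. For several of these genes Osx+ array 2 read above Osx+ array 1, as Pi16 and Mfap5 show. The 6 that fell were Smpd3, Sfrp2, Col5a2 and the 3 chains of type VI collagen. In 21 of the 22 genes that were higher, both CD45+ arrays read below both CD51+ arrays.

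Among 20 genes of tendon and periosteum 8 were higher and 6 lower. The lower ones included Scx and Mkx, transcription factors of tendon, and Postn (periostin), and the higher ones included Tnmd, Ogn and Tnxb, the last at 11.79 and 11.70 against 4.60 and 6.63. Of 20 adipocyte genes 8 were higher (7 or 5 without Osx+ array 1 or array 2) and 2 lower. G0s2, a lipase inhibitor also abundant in neutrophils, read 10.30 and 10.78 against 4.02 and 4.82, and Dgat2, an enzyme of triglyceride synthesis, 9.67 and 9.86 against 6.63 and 6.69, both in both fits. Pparg, Plin4, Cidec and Lep, which define fat cells, did not pass and read between 2.24 and 4.43 in all 4 arrays.

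Signalling lists differed in their direction, and the Wnt, BMP, FGF, Hedgehog and IGF lists had calls on both sides. Over all genes 14.2% were higher and 9.63% lower, so that calls on both sides are also found in genes at large. In the Wnt list 10 of 51 genes were higher and 13 lower, with a median difference of -0.25. Without Osx+ array 1 or array 2 the number higher was 6 or 6 and the number lower 8 or 9. The ligands Wnt4 and Wnt5b read 6.41 and 6.30 against 9.64 and 10.01 and 5.06 and 5.14 against 8.82 and 8.38 and fell in both fits, with the R-spondin Rspo3, its receptor Lgr6 and the frizzled receptor Fzd9. The ligand Wnt2 read 7.25 and 7.80 against 3.98 and 3.92 and the secreted inhibitor Sfrp1 7.88 and 8.42 against 5.59 and 6.12, and both were higher in both fits. The inhibitors themselves parted, since Dkk2 and Sfrp4 were higher (3.60 and 3.65) and Frzb, Sfrp2 and Notum lower (-2.79, -2.77 and -1.77) in the 4-array fit. Axin2 and Lef1, targets of beta-catenin, did not pass.

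In the BMP list 10 of 34 genes were higher and 8 lower, and these became 3 or 4 and 4 or 6 without Osx+ array 1 or array 2. Bmp8a, a ligand, read 5.05 and 5.52 against 8.28 and 8.04 and fell in both fits, as did Gdf5, the ligand of joint formation. Bmp4 read 9.03 and 9.03 against 5.82 and 5.74 and was higher in the 4-array fit, as was the antagonist Fst. The receptors Bmpr1a, Bmpr1b and Bmpr2 did not pass. In the FGF list 3 of 21 genes were higher (14.3%, near the 14.2% of all genes) and 4 lower (19.0%, against 9.63%). Besides Fgfr3, the decoy receptor Fgfrl1 fell in both fits (7.67 and 7.41 against 10.27 and 10.03), and the ligands Fgf7 and Fgf18 were higher in the 4-array fit, at 7.37 and 7.92 against 4.06 and 4.30 and 7.80 and 8.08 against 4.79 and 4.98.

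In the Hedgehog list 3 of 16 genes were higher (18.75%) and 3 lower (18.75%), against 14.2% and 9.63% of all genes. The ligand Ihh and the receptor and target Ptch1 were lower. Ptch1 read 7.95 and 8.01 against 10.32 and 10.36 and passed in the 4-array fit, where 1 of its 3 probe sets passed as lower. The co-receptors Gas1, Boc and Cdon were higher, with differences of 3.44 ± 0.13, 1.40 ± 0.16 and 0.91 ± 0.14 (SE), also in the 4-array fit. Smo was lower by less than 1 log2 unit, and Gli1, a target of the pathway, read 6.17 and 6.01 against 6.25 and 6.60 and did not pass. In the TGF-beta list 8 of 21 genes were higher, with the receptor Acvrl1 (7.05 and 7.39 against 3.79 and 4.20) and the latency protein Ltbp4 (9.23 and 9.39 against 5.13 and 5.31) in both fits, and 1 was lower. In the IGF list 6 of 19 were higher and 4 lower, and Igfbp6 read 12.13 and 12.13 against 6.40 and 7.53. In the Notch list 5 of 20 were higher in the 4-array fit and 1 or 2 without Osx+ array 1 or array 2. Tnfsf11, the osteoclast factor RANKL, read 4.28 and 4.25 against 7.01 and 6.97 and was lower in the 4-array fit, as was its decoy Tnfrsf11b.

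**Figure D4:**
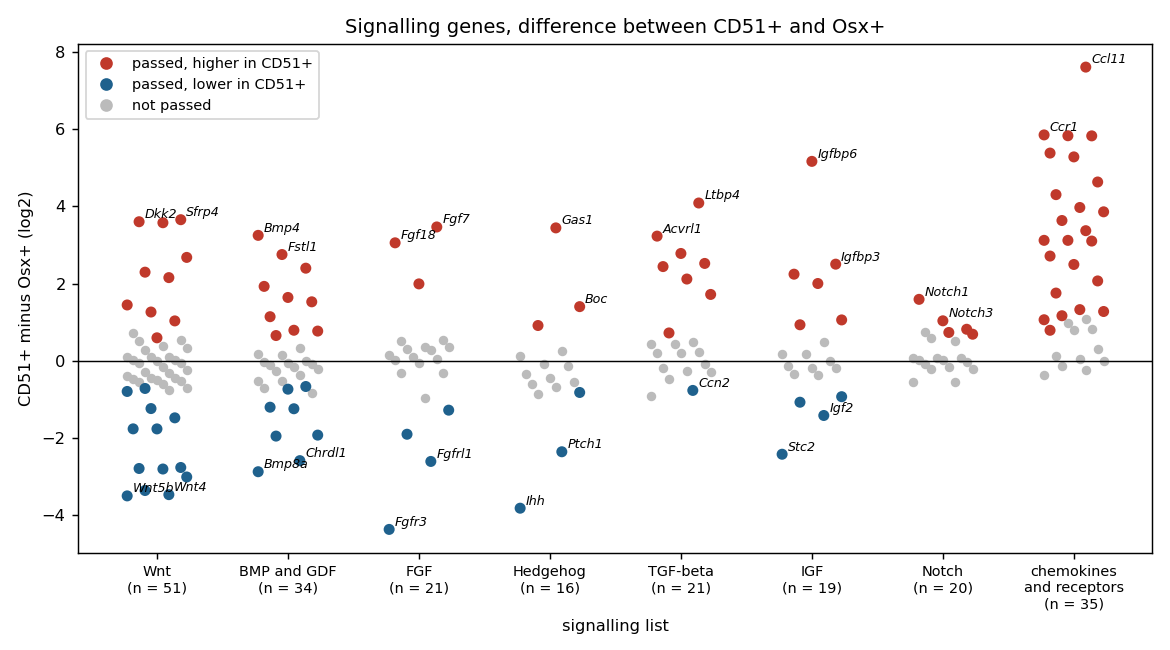
Difference CD51+ minus Osx+ (log2, y axis) of each measured gene in 8 signalling lists (x axis), with the side-to-side position for legibility only. Red and blue points passed in the 4-array fit and grey points did not. The Wnt, BMP, FGF and Hedgehog lists have members on both sides of 0, and all 24 chemokine genes that passed lie above it.

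Chemokines were higher with no exception among those that passed. Of 35 measured chemokines and receptors 24 were higher in CD51+ BMSCs, 13 in both fits, and none was lower (0 at an unadjusted p under 0.05), with a median difference of 2.07. Ccl11, the eosinophil attractant eotaxin, read 10.36 and 10.80 in the CD51+ arrays and 2.98 and 2.95 in the Osx+ arrays (195-fold higher, adjusted p = 0.00024 and 0.0048). The CD45+ arrays read 2.69 and 2.63 for this gene. Ccl2 and Ccl7, which attract monocytes, read 10.11 and 9.998 against 4.84 and 4.71 and 10.25 and 10.04 against 4.28 and 4.35 and were higher in both fits, while the CD45+ arrays read 5.31 and 6.003 and 3.72 and 3.52. Receptors of leukocytes were higher as well. Cxcr4, the CXCL12 receptor, read 8.22 and 7.92 against 3.25 and 3.64, and Ccr1 read 8.81 and 9.28 against 3.02 and 3.37, with 9.79 and 10.45 and 9.88 and 10.03 in the CD45+ arrays. In 14 of the 24 genes both CD45+ arrays read below both CD51+ arrays, and in 10 they read above.

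Of 21 complement genes 13 were higher, 6 in both fits, and 1 was lower. Cd55, a brake on complement, read 10.42 and 10.43 against 5.22 and 5.69, and Vtn (vitronectin), a ligand of integrin alpha V, 8.13 and 8.43 against 3.71 and 3.64, both in both fits. C1ra and C1s1, the proteases that start the cascade, were higher in the 4-array fit. In 12 of the 13 both CD45+ arrays read below both CD51+ arrays.

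Of 33 interferon-response genes 22 were higher in CD51+ BMSCs, 6 in both fits, and none was lower (0 at an unadjusted p under 0.05), with a median difference of 1.47. Rsad2 (viperin) read 9.67 and 9.24 against 5.54 and 5.70, Usp18 7.02 and 7.09 against 3.14 and 3.64, and Ifi27l2a 9.55 and 9.44 against 4.22 and 4.52. The classical targets Mx1, Ifit3, Oasl1 and Stat2 did not pass. In 16 of the 22 genes both CD45+ arrays read above both CD51+ arrays. Of 22 genes of Toll-like receptor signalling 9 were higher, and Cd14, the co-receptor for bacterial lipopolysaccharide, read 12.06 and 12.18 against 6.18 and 6.52.

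Genes of blood cells were higher in CD51+ BMSCs, and the neutrophil list had the highest median difference of all 43 lists. Of 32 pan-leukocyte genes 31 were higher, 19 in both fits, and none was lower (0 at an unadjusted p under 0.05), with a median difference of 3.35. The exception was the haematopoietic signalling gene Vav1, at 4.38 and 3.84 against 3.70 and 3.78 in its brightest probe set, while 1 of its 2 probe sets passed as higher. The list median was 9.15 and 9.08 in the CD51+ arrays, 4.25 and 5.32 in the Osx+ arrays and 10.9 and 10.7 in the CD45+ arrays. Of 31 neutrophil genes 25 were higher, 19 in both fits, with a median difference of 5.10. Lcn2 (lipocalin-2), an iron-binding granule protein, read 12.80 and 13.02 against 3.51 and 5.68, Ltf (lactoferrin) 13.13 and 13.16 against 4.36 and 7.02, and Ifitm6 11.87 and 11.83 against 2.57 and 4.20, a 353-fold difference. S100a9, a calcium-binding protein of neutrophils, read 14.59 and 14.66 against 6.16 and 9.68. It lost its call when the prior variance was given a trend and robust estimation together (limma adjusted p = 0.0718), as did Camp (adjusted p = 0.081). In all 25 genes both CD45+ arrays read above both Osx+ arrays.

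The early granule genes did not pass. Mpo (myeloperoxidase) read 11.12 and 9.44 in the CD51+ arrays and 4.34 and 8.98 in the Osx+ arrays, and Elane, Ctsg and Prtn3 were also below the threshold. Camp, a late granule gene, read 13.72 and 13.69 against 5.16 and 8.89, so that Osx+ array 2 was higher than array 1 for both stages. Without Osx+ array 2 the neutrophil median difference was 5.94, and without Osx+ array 1 it was 4.20. The numbers of genes higher were 23 of 31 in either case, and 27 and 23 of 32 for the pan-leukocyte list.

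Of 38 monocyte and macrophage genes 26 were higher, 16 in both fits, and 2 were lower. The 26 became 13 or 17 without Osx+ array 1 or array 2. Clec4d and Clec4e, lectin receptors of activated myeloid cells, read 10.78 and 11.001 against 4.10 and 3.39 and 10.51 and 10.59 against 3.12 and 3.39. Csf1r, the receptor that defines the lineage, read 9.44 and 8.88 against 5.23 and 5.89. Mertk and F13a1, of tissue macrophages, were lower in the 4-array fit, and Cx3cr1, Trem2, Marco and Timd4 read at or below 5.14 in all 4 arrays and did not pass. Of 27 erythroid genes 15 were higher, 4 in both fits, and the 15 became 4 or 8 without Osx+ array 1 or array 2. Alas2, which starts haem synthesis in red cells, read 9.58 and 8.80 against 3.97 and 4.65, and in all 15 genes both CD45+ arrays read below both CD51+ arrays.

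Lymphoid genes had shares nearer to the 14.2% of all genes. Of 25 B cell genes 6 were higher (24%) and 1 lower (1 or 0 higher without Osx+ array 1 or array 2), and of 24 T and NK cell genes 4 were higher (16.7%). Rag1, the recombinase of lymphocyte precursors, read 6.17 and 3.33 in the CD51+ arrays, far apart, and 2.74 and 2.57 in the Osx+ arrays, and it did not pass. The B cell list median was 5.65 in CD51+ array 1 and 4.49 in array 2. Of 25 endothelial genes 7 were higher (4 when dim probe sets were left out), including Tek (the angiopoietin receptor, 7.91 and 8.12 against 2.98 and 2.61) and Lyve1 in both fits, and Cdh5, the cadherin of endothelial junctions, in the 4-array fit only (4.76 and 4.99 against 4.14 and 3.34). Kdr and Vwf did not pass. In these bulk samples fewer cells of a type and less RNA per cell cannot be told apart, and the part of blood cells in the other differences was not tested. Over all 2588 genes that were higher, both CD45+ arrays read below both CD51+ arrays in 1383 and above them in 1039.

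**Figure D5:**
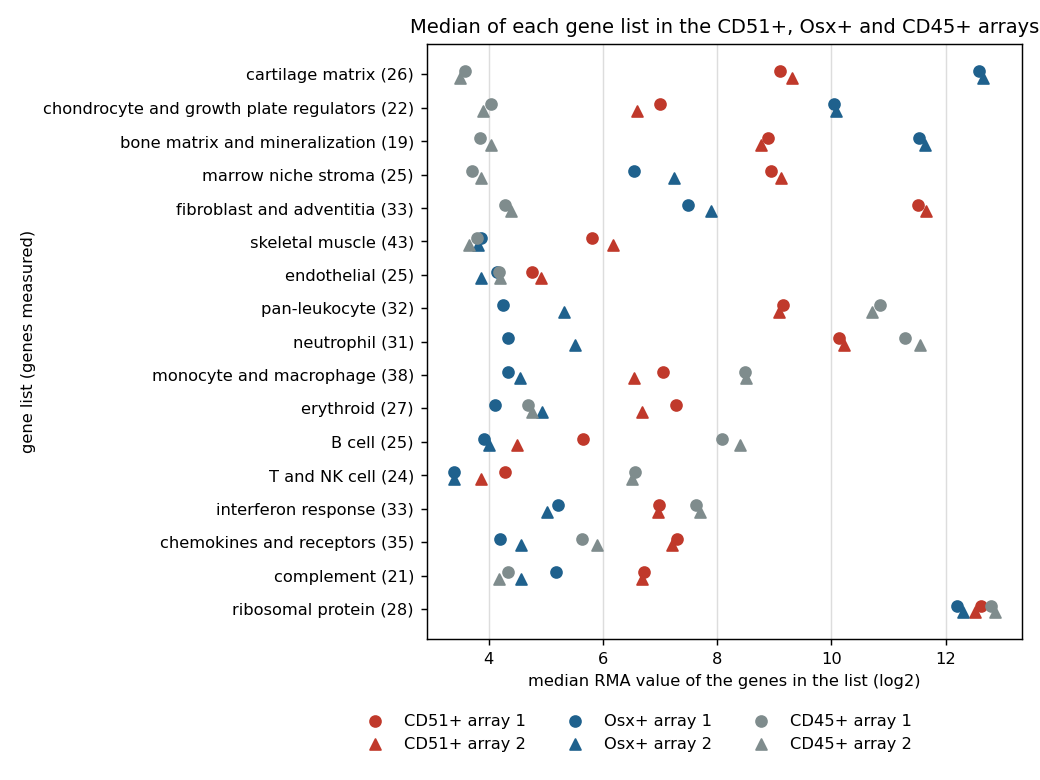
Median log2 RMA value (x axis) of the genes in 17 lists (y axis, with the number of genes) in the CD51+ (red), Osx+ (blue) and CD45+ (grey) arrays, with circles for array 1 and triangles for array 2. The CD51+ medians lie between those of the Osx+ and CD45+ arrays for leukocyte, neutrophil, monocyte and interferon genes and beyond both for niche, fibroblast, muscle, erythroid, chemokine and complement genes.

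The promoters of the pan-leukocyte genes were searched for GAGGAAG, the core letters bound by PU.1 (Spi1), a factor whose own gene read 6.63 and 6.49 against 5.11 and 4.60. Of 29 promoters of 23 matched genes 9 held it (31%), against 13.6% of all promoters. The promoter of Itgam, the integrin chain of myeloid cells that read 7.57 and 7.52 against 3.19 and 2.79, is shown from chr7:128062390-128062689 on the + strand for its matches on either strand, which are in capitals.
Itgam promoter: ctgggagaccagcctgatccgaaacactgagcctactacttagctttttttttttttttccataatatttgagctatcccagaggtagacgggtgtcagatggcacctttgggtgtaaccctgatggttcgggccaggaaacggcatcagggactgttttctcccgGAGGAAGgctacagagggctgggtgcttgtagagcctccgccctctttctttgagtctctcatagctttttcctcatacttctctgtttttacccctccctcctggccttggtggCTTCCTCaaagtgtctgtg
These matches are descriptions of letters, not of binding.

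Skeletal muscle genes formed a further set on the CD51+ side. Of 43 measured 28 were higher, 12 in both fits, and 1 was lower, with a median difference of 1.55. Myh1, a fast myosin heavy chain, read 7.79 and 8.83 in the CD51+ arrays and 2.38 and 2.31 in the Osx+ arrays (62.7-fold higher, adjusted p = 0.00045 and 0.0032). Tnnc2, fast troponin C, read 9.10 and 10.14 against 4.96 and 4.57, and Acta1, skeletal actin, 10.12 and 11.09 against 6.02 and 5.73. In each of these CD51+ array 2 was about 1 log2 unit above array 1. The myoblast factor Myod1 and the satellite cell factor Pax7 had the opposite order, at 6.09 and 5.45 and 4.81 and 4.27 in the CD51+ arrays against 3.79 and 3.65 and 3.34 and 3.31. Without CD51+ array 2 the list median was 1.24. Without Osx+ array 1 or array 2 the number higher was 5 or 8. The CD45+ medians of this list, 3.79 and 3.65, were close to the Osx+ medians of 3.87 and 3.81. The part of muscle RNA in the other differences was not tested.

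The promoters of the muscle genes were searched for the E-box CAGCTG, the preferred letters of the MyoD family and its own reverse complement. It stood in 20 of 40 promoters of 34 matched genes (50%), against 16.3% of all promoters. These 20 promoters belonged to 17 genes, and genes of the list were searched whatever their call. The windows of Mb overlapped and held the same match, as did those of Tnni1, so promoters are not independent units. The promoter of Mylpf, a myosin light chain that read 7.78 and 8.72 against 4.94 and 4.49, is shown from chr7:127211358-127211657 on the + strand with its match in capitals.
Mylpf promoter: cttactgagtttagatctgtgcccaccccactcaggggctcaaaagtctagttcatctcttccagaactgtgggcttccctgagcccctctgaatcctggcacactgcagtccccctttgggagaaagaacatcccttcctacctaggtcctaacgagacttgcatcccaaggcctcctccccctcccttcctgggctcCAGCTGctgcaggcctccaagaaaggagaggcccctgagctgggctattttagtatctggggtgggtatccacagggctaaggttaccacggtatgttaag

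Among general cell functions, none of 28 ribosomal protein genes passed in either direction in limma (3 higher and 3 lower at an unadjusted p under 0.05), and their medians were 12.6 and 12.5 in the CD51+ arrays and 12.2 and 12.3 in the Osx+ arrays. Of 38 cell cycle genes 5 were higher (13.2%) and 4 lower (10.5%), near the 14.2% and 9.63% of all genes. Mki67, a proliferation marker, was higher (9.38 and 9.07 against 7.44 and 8.31), and the CD45+ arrays read 11.01 and 10.81. Cdkn1c, a cell cycle inhibitor of the growth plate, was lower (8.46 and 8.85 against 12.03 and 11.95). Both genes passed in the 4-array fit only. Of 27 genes of stress and dissociation 7 were higher and 3 lower (12 higher with a trend and robust estimation of the prior variance). Fos read 13.70 and 13.85 against 13.09 and 13.33 and did not pass. Of 33 metalloproteinases and inhibitors 12 were higher and 10 lower, and the 12 became 5 or 8 without Osx+ array 1 or array 2. Mmp13, the collagenase of hypertrophic cartilage and bone, read 8.89 and 8.77 against 11.10 and 11.64, while Mmp8, the collagenase of neutrophils, read 10.18 and 10.71 against 3.09 and 3.62, and Timp1 read 9.56 and 9.67 against 12.27 and 12.24.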

How the data were processed

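RNA from sorted mouse cells was measured on 11 Affymetrix arrays. The authors made the deposited log2 values with RMA in Partek GS and R, and the submitters' notes name limma. The 4 arrays of the comparison were fitted with limma 3.58.1 in R 4.3.3 with a mean per population (2 residual and 3.46 prior degrees of freedom), without 64 control probe sets, and p-values were adjusted by Benjamini and Hochberg over 45037 probe sets. A fit of all 11 arrays (5 residual degrees of freedom) was the first alternative. Of the probe sets 34945 carry 1 gene symbol in the platform's annotation, 932 several and 9160 none, and a gene (18193) was read from its brightest probe set with 1 symbol. The number of arrays, not depth, limits precision.

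Members, gene lists and tests were chosen with earlier results of these data known. Named genes were the sort genes, up to 5 members of a list per direction, and up to 15 genes per direction over all genes, that passed in both fits without overlap. Members that define a list and passed in 1 fit or in none, the sex-linked genes and a few genes at the end were added with values seen. Samples were grouped by title. The array numbers share nothing in the labels beyond the number and were not taken to pair the samples. Quantile normalization, median centring, leaving out dim probe sets or single arrays, and a variance trend with robust estimation were tried as alternatives. So were a replicate block, smaller sets of arrays and other thresholds. Promoters came from RefSeq (GRCm38.p6).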

Additional observations from a re-analysis of the deposited data

How the results depend on the processing

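Of 8483 probe sets that passed (4807 higher and 3676 lower in CD51+ BMSCs), a fit of all 11 arrays passed 1002 (682 and 320), a least difference of 2-fold left 5355 (2106 lower), 1 probe set per gene left 4722 (2762 and 1960), and an unadjusted p gave 14458 (7318 and 7140). Leaving out 1 array gave 0 to 4497 in total, 0 to 2701 higher and 0 to 1796 lower. The 0 came from a fit without either CD51+ array, in which the remaining CD51+ array was assumed to vary like the Osx+ pair. With the array number as a replicate block 8310 passed, 4732 of them higher. The numbers were not shown to pair the samples, since only 2 pairs exist and their differences between array 1 and array 2 correlated at -0.0712. Fits of 9 or of 6 arrays, whose added spread comes from the same CD45+ pair, passed 11108, and the other settings passed 7810 to 9279, within 1.5 times. With the median over all probe sets of a gene the list medians became -1.888 for bone matrix, -2.398 for growth plate regulators, 1.317 for interferon genes and 1.490 for chemokines, and with quantile normalization 1.142 for interferon genes and 1.699 for chemokines. Without single arrays the neutrophil median was 4.202 to 5.942 and the skeletal muscle median 1.243 to 1.786. No list median given in the report changed sign in any setting, and 6 lists whose median lay near 0 (FGF, IGF, T and NK cell, housekeeping, metalloproteinase and pericyte genes) did in at least 1.

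Of 191 genes named, 58 lost their call in the 11-array fit, 178 without either CD51+ array, 34 without Osx+ array 1 and 27 without Osx+ array 2. In other settings Itgav lost its call with the replicate block, and Itgav, Cdon and Col1a2 under a least difference of 2-fold. Camp and S100a9 lost theirs with a trend and robust estimation of the prior variance. Cytl1, Fos, Pecam1, Itgb1 and Xist, which had not passed, passed in some settings, Xist without Osx+ array 1 (limma adjusted p = 0.048). Of genes without a call, leaving out 1 array turned the sign of Mx1 (-0.04972 to 0.1166; -0.006059 without Osx+ array 2), Nes (-0.6932 to 0.09036) and Xist (-0.07033 to 1.543). The cause was not tested for any of these changes.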

Other observations

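Outside the gene lists, genes with large differences in both fits included transporters, an adaptor, a collagen and a keratin. Lower in CD51+ BMSCs were Slc38a4, an amino acid transporter (3.04 and 3.04 against 8.23 and 8.30), Slc8a3, a sodium-calcium exchanger (6.54 and 6.72 against 11.81 and 11.59), Grb14, an adaptor of the insulin receptor (5.61 and 5.06 against 10.16 and 10.35), Col27a1, a fibrillar collagen of cartilage (7.93 and 8.23 against 12.75 and 12.54), and the keratin Krt16 (3.46 and 3.39 against 9.32 and 8.69). From the mast cell and basophil list, Hdc, the enzyme that makes histamine, was higher in both fits (10.92 and 11.16 against 4.09 and 4.61). The CD45+ arrays read 9.90 and 10.13 for this gene. Of the 20 measured genes of that list 4 were higher (20%, against 14.2% of all genes) and 1 was lower. The median difference of the list was 0.14.

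A further set was chosen after its values were seen. The genes Scara5, Apod, Inmt and Fmo2 read 12.46 and 12.51, 13.10 and 12.97, 11.08 and 11.50 and 8.61 and 9.29 in the CD51+ arrays. In the same order they read 5.06 and 6.71, 7.43 and 6.59, 5.04 and 5.21 and 4.82 and 4.40 in the Osx+ arrays. Aldh1a1, an enzyme of retinoic acid synthesis, read 8.23 and 8.10 against 3.10 and 3.50, and Il11, a cytokine of bone remodelling, read 5.06 and 4.90 against 9.36 and 8.88. Inmt, Fmo2, Aldh1a1 and Il11 passed in both fits, and Scara5 and Apod in the 4-array fit only.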
